A study of Homo sapiens with 21 samples.

Results

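The genes described here are 10 classical targets of the YAP-TEAD transcription complex, taken by symbol from a table of 57820 genes: CYR61, CTGF, AXL, F3, MYOF, CRIM1, AMOTL2, LATS2, PTPN14 and NUAK2. All 10 symbols were found once, and all 10 passed a filter on low values (at least 1 FPKM in at least 3 of 21 libraries), as did 16092 genes in all. CYR61, CTGF, MYOF and CRIM1 reached 1 FPKM in a library of only some of the groups. RNA was sequenced from NLF, a human neuroblastoma cell line, in 7 groups of 3 libraries. The YAPKO1 and YAPKO2 lines carry Cas9 with one of 2 guides against YAP1, and the sgCON line carries Cas9 with a scrambled guide. Each of these lines was grown for 72 h with 20 nM trametinib, a MEK kinase inhibitor, or with its solvent DMSO. The parental NLF line is the starting line. It was labelled with 0.01% DMSO for 72 h, as were the DMSO libraries of the derived lines. Whether a derived line is a clone is not given, nor whether the 3 replicates came from different cultures, so a p-value covers only the variation among these libraries, which could be technical. In bulk RNA, fewer cells of a kind and less RNA per cell cannot be told apart.

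YAP is a coactivator without a DNA-binding domain of its own. When the LATS kinases of the Hippo pathway do not hold it in the cytoplasm, it enters the nucleus and binds the TEAD factors, which recognise a short DNA element and drive genes of adhesion, matrix and growth. Several targets act back on the pathway: LATS2 phosphorylates YAP, and AMOTL2 and PTPN14 bind it and keep it out of the nucleus. In neuroblastoma, YAP activity is known from cells of a mesenchymal state.

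All 10 are protein-coding, and GENCODE v29 (GRCh38) places on the plus strand CYR61 (ENSG00000142871) at chr1:85580761-85583962, AXL (ENSG00000167601) at chr19:41219203-41261766 and CRIM1 (ENSG00000150938) at chr2:36355926-36551135. It places on the minus strand CTGF (ENSG00000118523) at chr6:131948176-131951373, F3 (ENSG00000117525) at chr1:94529225-94541800, MYOF (ENSG00000138119) at chr10:93306429-93482317 and AMOTL2 (ENSG00000114019) at chr3:134355874-134375479. Also on the minus strand are LATS2 (ENSG00000150457) at chr13:20973032-21061547, PTPN14 (ENSG00000152104) at chr1:214348696-214552449 and NUAK2 (ENSG00000163545) at chr1:205302059-205321791.

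The guides define the tested lines, so they are shown with the adjacent PAM in capitals (GENCODE v29 transcripts, GRCh38). The YAPKO1 guide matched the plus strand of chromosome 11 at 102111058 to 102111077 and the YAPKO2 guide the minus strand at 102110997 to 102111016. Both sites lie in coding exon 1 of 7 of the 11 annotated YAP1 transcripts, while the scrambled sgCON guide matched 0 transcripts.
YAPKO1 guide: cgccgtcatgaaccccaagaCGG
YAPKO2 guide: gtgcacgatctgatgcccggCGG

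Promoters of 3 targets are shown because CTGF and NUAK2 moved in opposite directions in YAPKO2 and PTPN14 was lower in both knockout lines in both media. Capitals mark the TEAD core letters GGAATG, or CATTCC where they lie on the other strand. Each sequence is the 250 bases before the transcription start on the gene's strand, from RefSeq on GRCh38.p14: chr6:131951373-131951622 for CTGF, chr1:205321746-205321995 for NUAK2 and chr1:214551603-214551852 for PTPN14, all on the minus strand.
CTGF: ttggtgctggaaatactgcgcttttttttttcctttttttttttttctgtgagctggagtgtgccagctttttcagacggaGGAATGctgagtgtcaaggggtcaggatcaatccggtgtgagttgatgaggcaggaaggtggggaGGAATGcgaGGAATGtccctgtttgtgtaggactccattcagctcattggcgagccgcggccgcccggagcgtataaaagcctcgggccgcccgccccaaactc
NUAK2: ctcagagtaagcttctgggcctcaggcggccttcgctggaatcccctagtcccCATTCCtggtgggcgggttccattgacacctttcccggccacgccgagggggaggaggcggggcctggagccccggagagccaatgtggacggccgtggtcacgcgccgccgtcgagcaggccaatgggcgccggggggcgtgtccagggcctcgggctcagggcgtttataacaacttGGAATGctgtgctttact
PTPN14: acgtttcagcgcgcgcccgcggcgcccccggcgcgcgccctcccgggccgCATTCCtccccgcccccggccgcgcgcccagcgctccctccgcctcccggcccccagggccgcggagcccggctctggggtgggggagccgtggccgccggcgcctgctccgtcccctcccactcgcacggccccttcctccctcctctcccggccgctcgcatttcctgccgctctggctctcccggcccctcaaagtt
Windows of 300 bases around the start were found for 8 of the 10 genes, of which AXL and AMOTL2 have 2 each. Of these 10 windows, 6 held the letters on either strand at least once. Among all 35116 windows, 14.0% held them at least once, 1.37% at least 2 times and 0.128% at least 3 times, as CTGF did with first bases 169, 104 and 95 before its start. NUAK2 held 2 copies. A match of these letters describes the sequence and is not a measured binding site.

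Levels below are FPKM divided by 1 scaling factor per library, and changes are log2 differences of FPKM + 0.5 with their SE from limma. A change was called where the p, adjusted by Benjamini-Hochberg over the 16092 genes, was under 0.05. Each comparison of groups was also run under 17 alternatives, among them other pseudocounts and scalings, a GC correction and leaving out each library. A 2-fold threshold was counted apart and is not among the 17. The pseudocount understates the change of genes near or under 0.5 FPKM. The number of genes at 1 FPKM or more ran from 13783 to 14233 per library, and FPKM carry no read counts, so no counting interval is given. Libraries differed in a GC trend, which sets the median deviation of genes rich in GC against that of genes poor in it. It ran from -0.60 to -0.55 (log2) in parental cells, -0.48 to -0.12 in sgCON, -0.40 to 0.67 in YAPKO1 and -0.25 to 1.32 in YAPKO2. YAPKO2 trametinib replicate 2 was highest. The trend thus differed between the lines compared. Its part in the results was not tested except through the corrections named below. YAP1 itself averaged 11.7 FPKM in YAPKO1 and 2.89 in YAPKO2, against 25.6 in sgCON, in DMSO, with changes of -1.12 ± 0.23 (limma adjusted p = 0.00363) and -2.95 ± 0.23 (adjusted p = 5.02e-08). Of 10 neuroblastoma markers 9 reached 1 FPKM in a library, DBH and CHGA only in libraries of the knockout lines. The sum of the 10 was 460 to 606 in YAPKO1 and 498 to 551 in YAPKO2, against 331 to 349 in sgCON, in DMSO. It was 273 to 292 in parental cells. The members differed: MYCN was 179 to 244 FPKM in YAPKO1 and 117 to 131 in YAPKO2, against 92.3 to 98.9 in sgCON, while HAND2 was 67.6 to 82.7 in YAPKO1 and 70.1 to 78.6 in YAPKO2, against 67.8 to 76.7 in sgCON. The part of these markers in the results was not tested.

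The loss of YAP1 was compared with sgCON without drug first. In YAPKO1, 5 of the 10 targets fell, where 5.81% of all tested genes fell and 12.0% were called in either direction. In YAPKO2, 8 fell and 1, NUAK2, rose, where 13.1% of all genes fell and 27.1% were called. CYR61, MYOF, CRIM1, LATS2 and PTPN14 fell in both lines. The median change of the 10 targets was -0.50 in YAPKO1 and -0.56 in YAPKO2, beside 0.00 and 0.01 over all tested genes.

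In trametinib, 4 of the 10 targets fell in YAPKO1 against sgCON, beside 7.18% of all genes that fell and 15.0% called. In YAPKO2, 7 fell and NUAK2 rose, beside 18.6% and 36.3%. CRIM1, AMOTL2, LATS2 and PTPN14 fell in both lines with the drug. CRIM1, LATS2 and PTPN14 were thus called lower in all 4 comparisons of a knockout line with sgCON, which share the sgCON libraries within each medium.

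**Figure D1:**
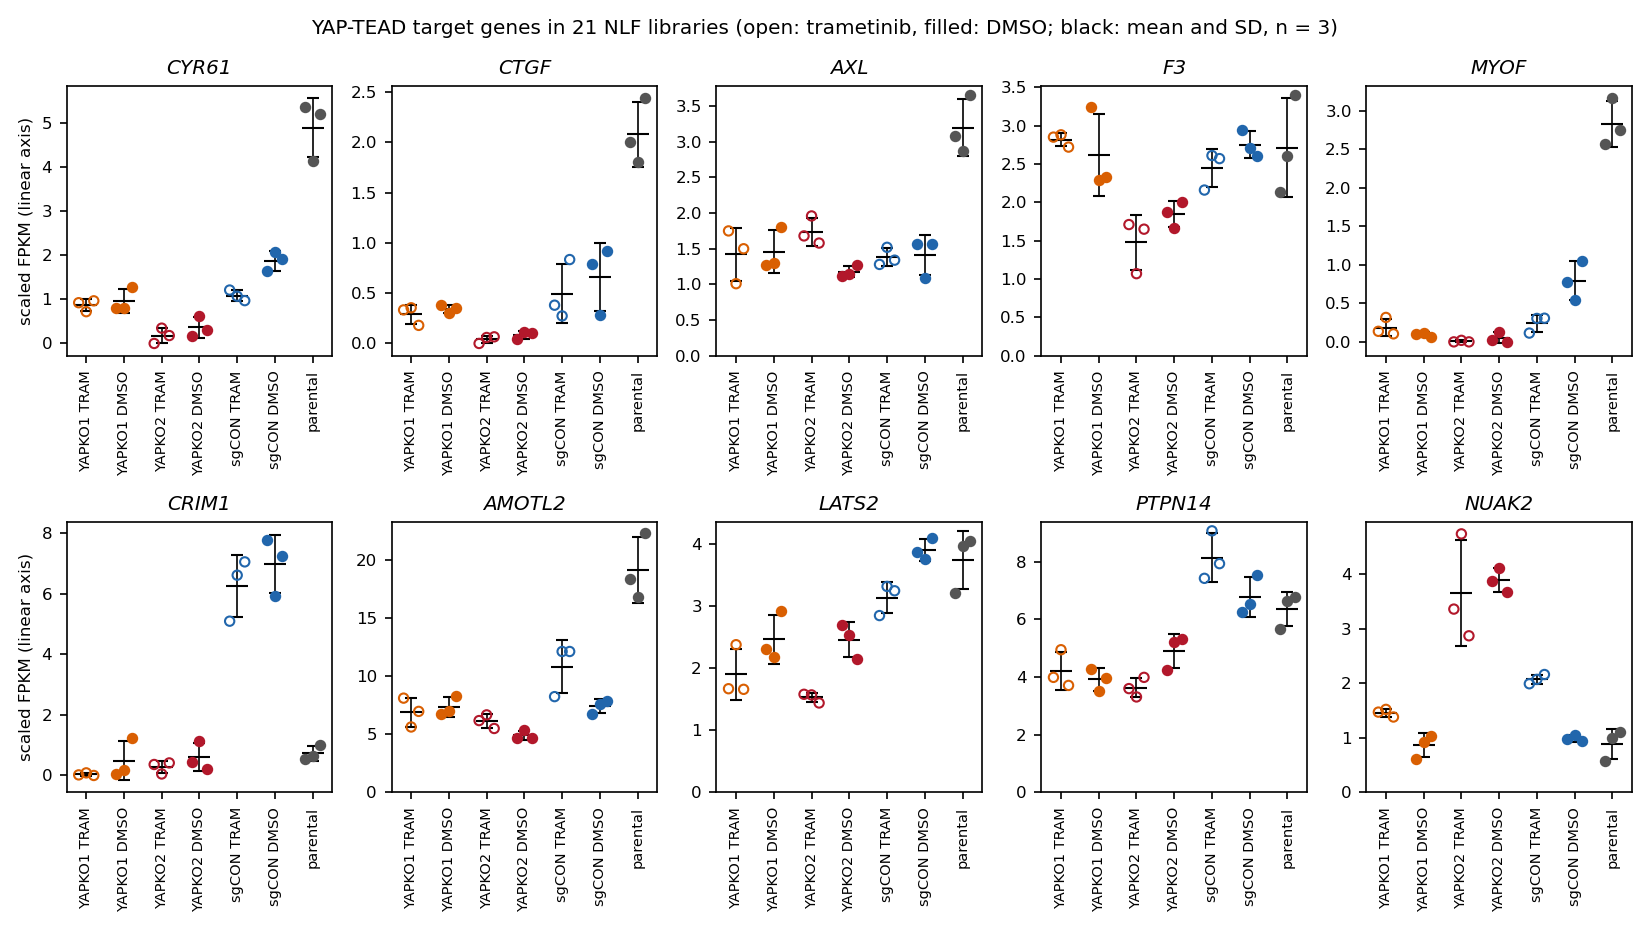
Scaled FPKM (linear vertical axes, each starting near 0) of the 10 targets in every library, by group, with knockout lines left of sgCON and parental cells. Points are libraries, black marks the mean and SD of 3. CRIM1 stands high only in the 2 sgCON groups, and NUAK2 is highest in YAPKO2.

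Among the secreted targets, CYR61 encodes a matricellular protein that signals through integrins. It stood at 0.796, 0.798 and 1.28 FPKM in YAPKO1 and 0.160, 0.626 and 0.312 in YAPKO2, against 1.63, 2.07 and 1.91 in sgCON, in DMSO. Neither knockout line overlapped sgCON, and YAPKO2 lay below YAPKO1. For YAPKO1 the change was -0.71 ± 0.23 (limma adjusted p = 0.0477), and for YAPKO2 -1.48 ± 0.23 (limma adjusted p = 0.000125). The YAPKO1 call was lost under 11 of 17 alternatives, including when any library compared was left out except YAPKO1 DMSO replicate 3 (limma adjusted p 0.00845 to 0.187 over the 17). In trametinib CYR61 was 0.923, 0.720 and 0.966 FPKM in YAPKO1 and 0, 0.347 and 0.179 in YAPKO2, against 1.21, 1.07 and 0.970 in sgCON, and only the YAPKO2 change was called (-1.26 ± 0.23, limma adjusted p = 0.00036).

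CTGF, a related matricellular protein, was near the limit of these tables outside the parental line. In DMSO it measured 0.383, 0.303 and 0.355 FPKM in YAPKO1 and 0.0400, 0.113 and 0.104 in YAPKO2, against 0.795, 0.282 and 0.917 in sgCON. YAPKO1 overlapped sgCON through sgCON replicate 2, while YAPKO2 lay below all 3 sgCON libraries. For YAPKO1 the change of -0.41 ± 0.25 was not called (limma adjusted p = 0.298). For YAPKO2 it was -0.95 ± 0.25 (limma adjusted p = 0.0101, and 0.0554 without sgCON DMSO replicate 3). With trametinib the YAPKO2 change was -0.84 ± 0.25 (limma adjusted p = 0.0145), lost when the fit held just the groups compared or left out sgCON trametinib replicate 3 (adjusted p up to 0.0864).

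Of the membrane targets, CRIM1 is a transmembrane protein that binds BMPs. It measured 0.0575, 0.192 and 1.23 FPKM in YAPKO1 and 0.450, 1.13 and 0.229 in YAPKO2, against 7.79, 5.93 and 7.27 in sgCON, in DMSO. With trametinib it measured 0.0196, 0.0864 and 0 FPKM in YAPKO1 and 0.363, 0.0496 and 0.415 in YAPKO2, against 5.10, 6.62 and 7.06 in sgCON. All 12 knockout libraries lay below all 6 sgCON libraries. Changes ran from -3.65 ± 0.36 to -2.84 ± 0.36 over the 4 comparisons. The parental line, with intact YAP1, stood at 0.547, 0.644 and 1.02 FPKM, so the comparison of CRIM1 rests on a high level in sgCON. CRIM1 overlaps the gene FEZ2 on the opposite strand, which measured 20.0 to 53.8 FPKM, and the strand setting of the quantification is not given in the sources used here.

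MYOF, a ferlin of membrane repair, measured 0.0958, 0.121 and 0.0608 FPKM in YAPKO1 and 0.0200, 0.133 and 0 in YAPKO2, against 0.776, 0.544 and 1.05 in sgCON, in DMSO. Every knockout library was below every sgCON library, with changes of -1.10 ± 0.22 (limma adjusted p = 0.00247) and -1.22 ± 0.22 (adjusted p = 0.000535). In trametinib the sgCON libraries held only 0.114, 0.304 and 0.307 FPKM, and neither knockout change was called (-0.11 ± 0.22 in YAPKO1 and -0.54 ± 0.22 in YAPKO2).

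AXL is a receptor tyrosine kinase, and F3, tissue factor, starts the coagulation cascade. AXL averaged 1.46 ± 0.303 FPKM in YAPKO1 and 1.18 ± 0.0791 in YAPKO2, against 1.41 ± 0.277 in sgCON, in DMSO (SD, n = 3 each), and was called in none of the 4 comparisons (changes -0.17 to 0.25, SE 0.17; limma unadjusted p under 0.05 in 0 of them). With trametinib AXL measured 1.68, 1.96 and 1.58 FPKM in YAPKO2, above sgCON at 1.28, 1.52 and 1.34 without overlap (limma adjusted p = 0.273). YAPKO1 overlapped sgCON there. F3 measured 1.87, 1.66 and 2.00 FPKM in YAPKO2, against 2.94, 2.71 and 2.60 in sgCON, in DMSO. That change of -0.47 ± 0.17 (limma adjusted p = 0.0479) was lost under 14 of 17 alternatives, including without any 1 of the 6 libraries compared. The F3 change in YAPKO2 with trametinib, -0.59 ± 0.17 (limma adjusted p = 0.012), was lost under 5 of 17, including without YAPKO2 trametinib replicate 2 and after GC correction.

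Of the feedback genes, LATS2 encodes a kinase that phosphorylates YAP. LATS2 measured 2.31, 2.18 and 2.92 FPKM in YAPKO1 and 2.69, 2.54 and 2.15 in YAPKO2, against 3.87, 3.76 and 4.10 in sgCON, in DMSO. With trametinib it measured 1.67, 2.38 and 1.66 FPKM in YAPKO1 and 1.58, 1.57 and 1.44 in YAPKO2, against 2.85, 3.32 and 3.25 in sgCON. No knockout library reached its sgCON range. The changes in DMSO were -0.58 ± 0.14 in both lines (limma adjusted p = 0.0142 in YAPKO1 and 0.00738 in YAPKO2), and the YAPKO1 call was lost under 3 alternatives, with only the groups compared and without sgCON DMSO replicate 3 or YAPKO1 DMSO replicate 2.

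PTPN14 encodes a phosphatase that binds YAP. It measured 4.28, 3.50 and 3.97 FPKM in YAPKO1 and 4.24, 5.21 and 5.31 in YAPKO2, against 6.25, 6.53 and 7.56 in sgCON, in DMSO. In trametinib it measured 3.99, 4.95 and 3.71 FPKM in YAPKO1 and 3.60, 3.31 and 3.99 in YAPKO2, against 7.43, 9.08 and 7.94 in sgCON. The groups did not overlap in either medium. The changes were -0.72 ± 0.13 and -0.43 ± 0.13 in DMSO and -0.88 ± 0.13 and -1.06 ± 0.13 in trametinib for YAPKO1 and YAPKO2, and the YAPKO2 call in DMSO (limma adjusted p = 0.025) was lost under 4 alternatives, with quantile normalization and without sgCON DMSO replicate 2 or 3 or YAPKO2 DMSO replicate 1.

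AMOTL2, an angiomotin that tethers YAP, had the highest FPKM, a level per length, of the 10 targets in parental cells. In DMSO it averaged 7.33 FPKM in YAPKO1 and 4.89 in YAPKO2, against 7.39 in sgCON, and the YAPKO2 libraries alone lay below sgCON (-0.55 ± 0.16, limma adjusted p = 0.0171; lost under 5 of 17 alternatives, among them without sgCON DMSO replicate 2 or 3 or YAPKO2 DMSO replicate 1 or 3). In trametinib the values were 8.09, 5.61 and 6.95 FPKM in YAPKO1 and 6.16, 6.65 and 5.48 in YAPKO2, against 8.22, 12.1 and 12.1 in sgCON. The YAPKO1 change there was -0.61 ± 0.16 and the YAPKO2 change -0.76 ± 0.16, both called. The YAPKO1 call was lost under 5 of 17 alternatives, among them without sgCON trametinib replicate 2 or 3 or YAPKO1 trametinib replicate 2.

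NUAK2, an AMPK-related kinase, went the other way in YAPKO2. It measured 0.613, 0.930 and 1.04 FPKM in YAPKO1 and 3.87, 4.12 and 3.68 in YAPKO2, against 0.972, 1.05 and 0.937 in sgCON, in DMSO. The YAPKO2 change was 1.56 ± 0.18 (limma adjusted p = 7.14e-06), and YAPKO2 lay above every other DMSO library. In trametinib YAPKO2 measured 3.36, 4.74 and 2.87 FPKM, against 1.99, 2.07 and 2.16 in sgCON, a change of 0.67 ± 0.18 (limma adjusted p = 0.00893) that was lost under 3 of 17 alternatives, among them without YAPKO2 trametinib replicate 2. YAPKO1 in trametinib, at 1.47, 1.52 and 1.38 FPKM, lay below sgCON without overlap. That change of -0.39 was not called (limma adjusted p = 0.159), except under 2 of 17 alternatives, both with GC correction.

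**Figure D2:**
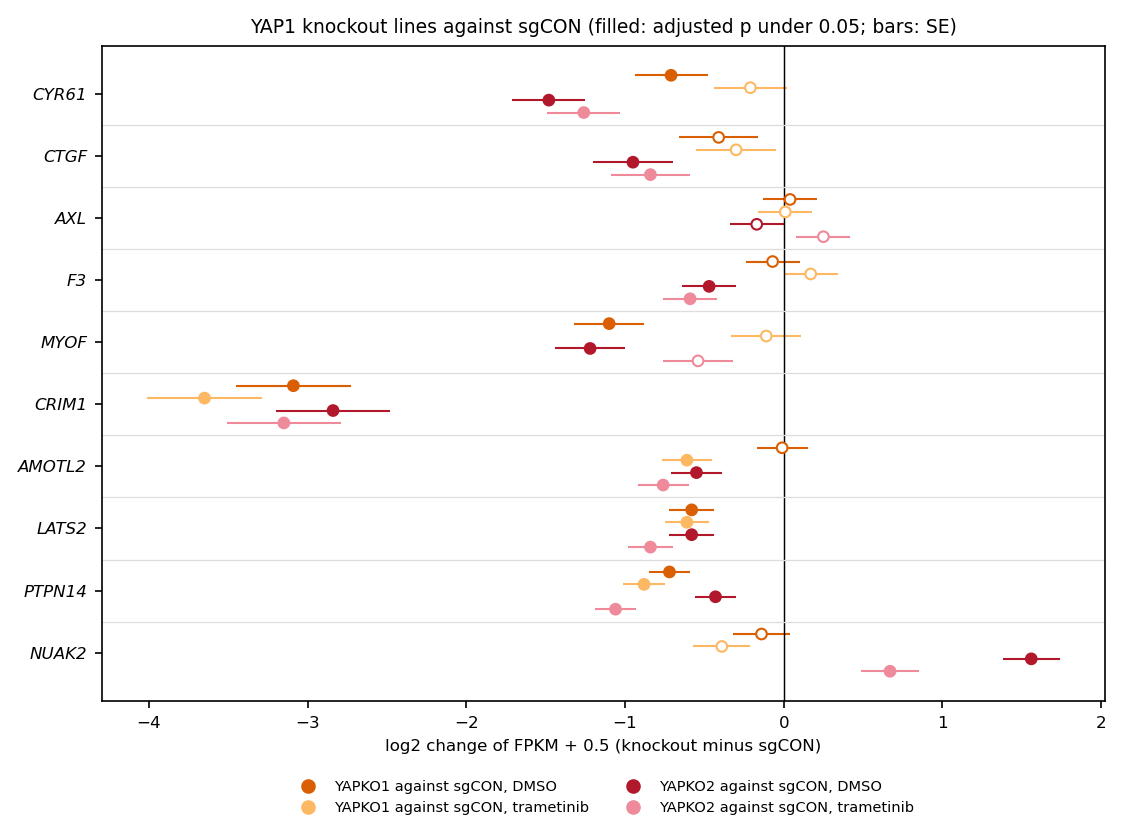
Log2 change of FPKM + 0.5 (horizontal axis) in YAPKO1 and YAPKO2 against sgCON, in DMSO and in trametinib, with SE bars. Filled points passed an adjusted p under 0.05, as for CRIM1, LATS2 and PTPN14 in all 4 comparisons, and NUAK2 in YAPKO2 lies to the right.

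The lines were then compared with each other in DMSO. NUAK2 was higher in YAPKO2 than in YAPKO1 (1.70 ± 0.18, limma adjusted p = 7.86e-06) and CYR61 lower (-0.77 ± 0.23, adjusted p = 0.0481), so 2 of the 10 were called where 6.97% of all tested genes were. The CYR61 difference was lost under 11 of 17 alternatives.

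The response to trametinib with YAP1 targeted or intact was compared next. In sgCON, 2 of the 10 targets were called, beside 5.22% of all genes. MYOF was lower (0.114, 0.304 and 0.307 FPKM in trametinib, against 0.776, 0.544 and 1.05 in DMSO; -0.79 ± 0.22, limma adjusted p = 0.0414), which 9 of 17 alternatives lost, among them leaving out any library compared other than sgCON DMSO replicate 2. NUAK2 was higher (1.99, 2.07 and 2.16 FPKM in trametinib, against 0.972, 1.05 and 0.937 in DMSO; 0.79 ± 0.18, limma adjusted p = 0.0151), which 4 of 17 lost: without DMSO replicate 1 or 3, or trametinib replicate 2 or 3. AMOTL2 measured 8.22, 12.1 and 12.1 FPKM in trametinib, against 6.73, 7.58 and 7.87 in DMSO, without overlap, at an adjusted p of 0.0851 (limma). CYR61 was lower without overlap, at 0.970 to 1.21 FPKM in trametinib, against 1.63 to 2.07 in DMSO. So was LATS2, at 2.85 to 3.32, against 3.76 to 4.10. Neither was called (limma adjusted p = 0.173 for CYR61 and 0.341 for LATS2).

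In YAPKO1, limma called 0 of the 10 targets with trametinib (2 at an unadjusted p under 0.05), beside 7.85% of all genes. In YAPKO2, LATS2 (-0.54 ± 0.14, limma adjusted p = 0.0136, lost under 3 of 17 alternatives) and PTPN14 (-0.39 ± 0.13, adjusted p = 0.049) were lower, beside 20.1%, and the PTPN14 call was lost under 13 of 17 alternatives. NUAK2 in YAPKO1 was 1.47, 1.52 and 1.38 FPKM in trametinib, against 0.613, 0.930 and 1.04 in DMSO. In YAPKO2 it was 3.36, 4.74 and 2.87 FPKM in trametinib, against 3.87, 4.12 and 3.68 in DMSO, so the NUAK2 groups overlapped only in that line.

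The difference between a knockout line's response and that of sgCON was tested as an interaction. Limma called 0 of the 10 targets for YAPKO1 (2 at an unadjusted p under 0.05, with 0.249% of all genes called) and 0 for YAPKO2 (3 unadjusted, with 4.83% called). The NUAK2 response was lower in YAPKO2 by 0.89 ± 0.26 on the log2 scale (limma adjusted p = 0.057). Of the 23 alternatives run for the interaction, 4 called it, including GC correction and leaving out YAPKO2 trametinib replicate 2. The PTPN14 response was lower in YAPKO2 by 0.64 (limma adjusted p = 0.0655), and 2 of the 23 called it. A p that misses the threshold does not show that the responses were alike.

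**Figure D3:**
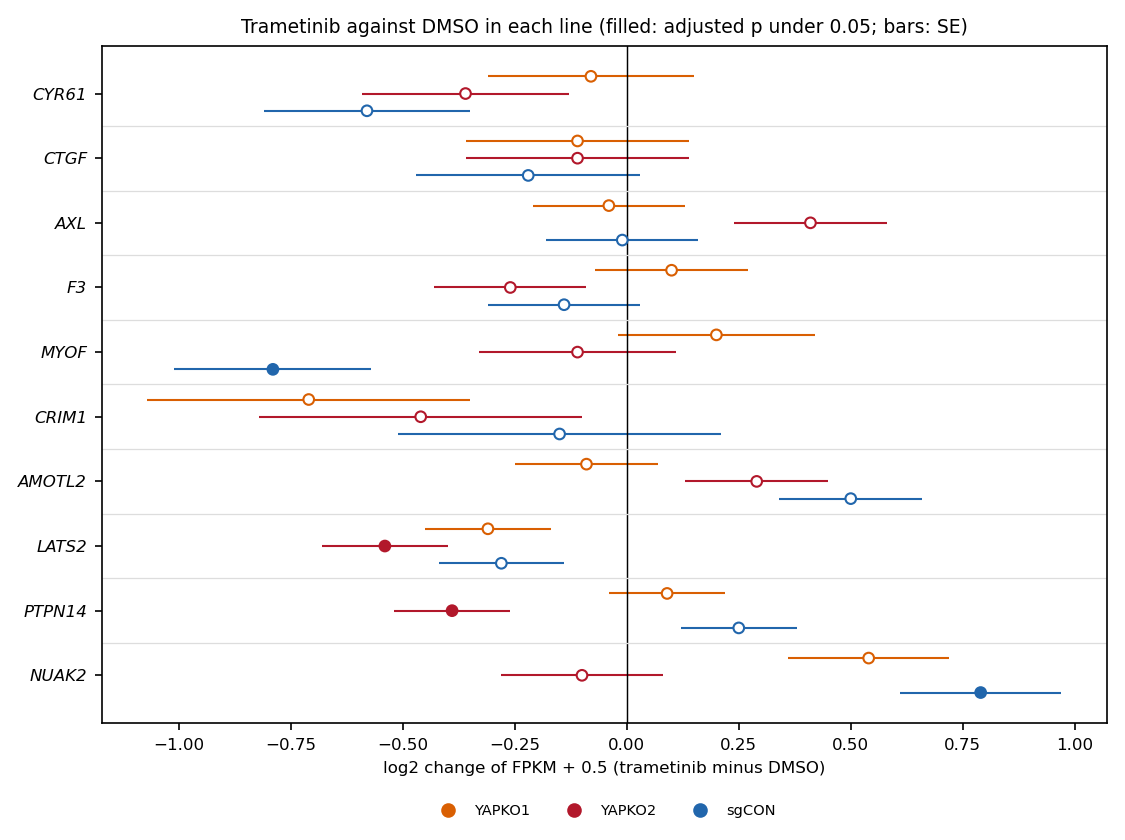
Log2 change of FPKM + 0.5 with trametinib against DMSO (horizontal axis) in YAPKO1, YAPKO2 and sgCON, with SE bars. Filled points passed an adjusted p under 0.05: MYOF and NUAK2 in sgCON, and LATS2 and PTPN14 in YAPKO2.

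The series uses the parental line as a comparison for sgCON. Against parental cells, 5 of the 10 targets were already lower in sgCON and CRIM1 was higher, where 7.87% of all genes were lower and 15.9% were called. CTGF reached 1 FPKM only in parental libraries, and MYOF only there and in sgCON DMSO replicate 3 (1.05 FPKM). Both passed the filter through the parental group where they are high, so their place in every count against parental cells depends on that group. AMOTL2 measured 6.73, 7.58 and 7.87 FPKM in sgCON, against 18.3, 16.8 and 22.3 in parental cells. AXL measured 1.57, 1.09 and 1.57 FPKM in sgCON, against 3.08, 2.87 and 3.65 in parental cells. CYR61 (-1.18 ± 0.23), CTGF (-1.19 ± 0.25), AXL (-0.96 ± 0.17), MYOF (-1.38 ± 0.22), AMOTL2 (-1.31 ± 0.16) and CRIM1 (2.61 ± 0.36) were called in all 17 alternatives as well. YAP1 itself differed by -0.31 ± 0.23 (limma adjusted p = 0.426).

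The other targets were not called between sgCON and parental cells: F3 (0.04 ± 0.17), LATS2 (0.06 ± 0.14), PTPN14 (0.08 ± 0.13) and NUAK2 (0.12 ± 0.18). LATS2 measured 3.87, 3.76 and 4.10 FPKM in sgCON, against 3.21, 3.98 and 4.05 in parental cells. PTPN14 measured 6.25, 6.53 and 7.56 FPKM in sgCON, against 5.68, 6.63 and 6.78 in parental cells. Both were lower in YAPKO1 against parental cells too (the LATS2 call was lost under 5 of 17 alternatives), and for YAPKO2 against parental cells LATS2 was called (-0.52 ± 0.14) while PTPN14 was at -0.34 ± 0.13 (limma adjusted p = 0.0512).

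Against parental cells, 7 of the 10 fell in YAPKO1 (12.4% of all genes fell, 27.3% called) and 6 fell and NUAK2 rose in YAPKO2 (17.8% fell, 37.8% called). CYR61 averaged 0.957 FPKM in YAPKO1 and 0.366 in YAPKO2, against 4.89 in parental cells. CRIM1, by contrast, averaged 0.492 FPKM in YAPKO1 and 0.603 in YAPKO2, against 0.737 in parental cells, and was not called in either.

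**Figure D4:**
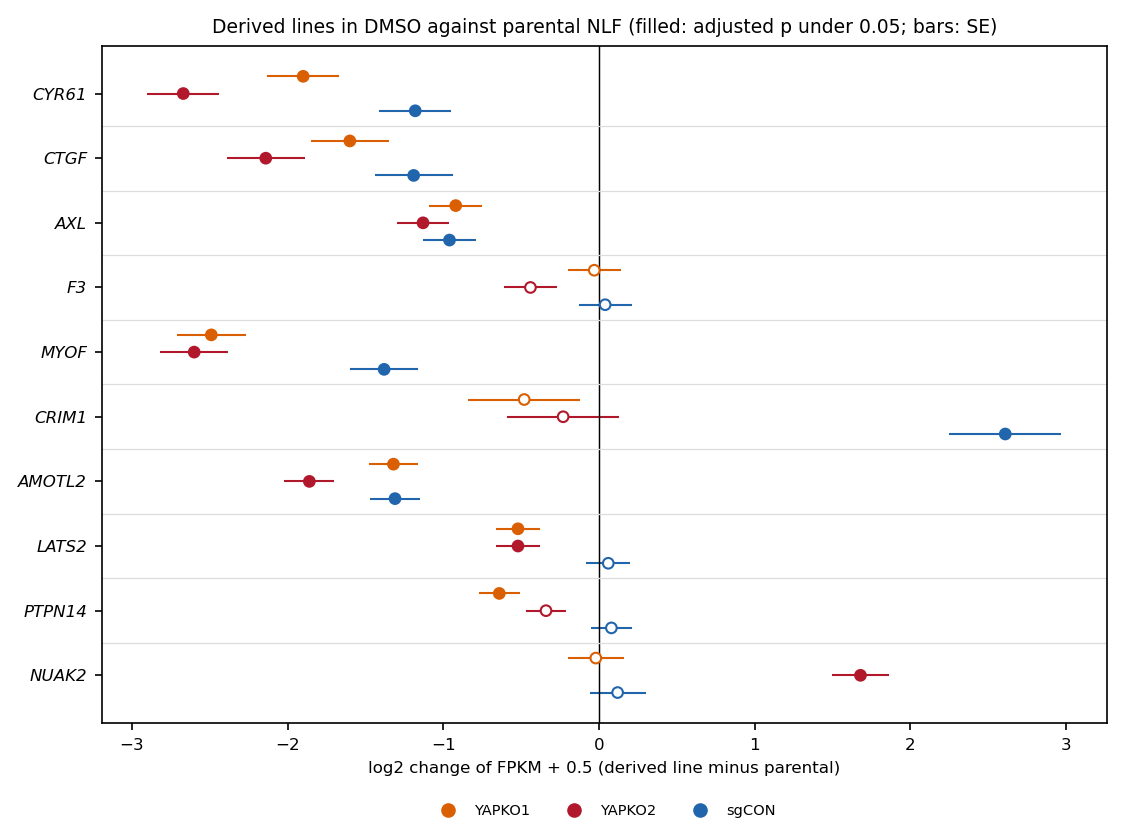
Log2 change of FPKM + 0.5 against parental NLF (horizontal axis) for YAPKO1, YAPKO2 and sgCON in DMSO, with SE bars. Filled points passed an adjusted p under 0.05, and CRIM1 in sgCON lies alone on the right with NUAK2 in YAPKO2.

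Other cell types' markers moved with the same lines. The summed FPKM of 8 fibroblast markers was 437 to 523 in sgCON, against 838 to 907 in parental cells. FAP was at 0 in all of these libraries. LUM was at 292 to 388 in sgCON, against 553 to 610, and DCN at 12.0 to 15.8, against 96.7 to 99.8. Only COL1A1 was higher in sgCON, averaging 17.5 FPKM in DMSO, against 12.8 in parental cells, without overlap. In DMSO the sum was 221 to 497 in YAPKO1 and 382 to 616 in YAPKO2, overlapping sgCON, and its members went different ways in YAPKO2: DCN was 198 to 218 FPKM, above sgCON, while COL3A1 was 22.6 to 26.4, against 92.3 to 101 in sgCON, and COL1A1 2.87 to 5.99, against 16.4 to 19.4 in sgCON. Of 4 epithelial markers, KRT18 was 14.4 to 15.7 FPKM in sgCON in DMSO, against 2.57 to 3.16 in parental cells. KRT18 was also lower in the knockout lines than in sgCON, at 1.28 to 3.03 FPKM in YAPKO1 and 0.562 to 0.730 in YAPKO2 in DMSO. Its values under trametinib were 0.346 to 0.852 FPKM in YAPKO1 and 0.179 to 0.285 in YAPKO2, against 12.8 to 14.8 in sgCON. CDH1 was at 0 in every library, and EPCAM and KRT5 were under 0.5 FPKM in all. The 5 mesenchymal-state markers, which include YAP1, were mixed in DMSO. SNAI2 was 2.37 to 3.34 FPKM in YAPKO1 and 2.91 to 3.03 in YAPKO2, against 1.18 to 1.95 in sgCON. PRRX1 was 8.80 to 12.9 in YAPKO1 and 0.156 to 0.400 in YAPKO2, against 0.216 to 0.548. FN1 was lower, at 60.8 to 66.8 and 52.2 to 59.0, against 76.3 to 80.1. VIM was 1344 to 1687 in YAPKO2, against 1098 to 1219, and overlapped sgCON in YAPKO1. The part of all these markers in the results was not tested.

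The other genes of the published signature that holds these targets were 12, of which 8 were tested. GADD45A, a growth arrest gene, was the only one called in both knockout lines in DMSO: 57.7, 55.2 and 51.2 FPKM in YAPKO1 and 28.1, 31.9 and 31.4 in YAPKO2, against 73.2, 74.9 and 72.5 in sgCON. In YAPKO1 in DMSO it was the only one of the 8 called, beside 12.0% of all tested genes. In parental cells it was 26.7, 23.3 and 24.3 FPKM, so sgCON lay above parental by 1.55 ± 0.11. With trametinib GADD45A was called lower in sgCON, YAPKO1 and YAPKO2, beside 5.22%, 7.85% and 20.1% of all tested genes called. Its means there were 55.2, 31.3 and 17.6 FPKM, against 73.5, 54.7 and 30.5 in DMSO. In YAPKO2 in DMSO, 2 of the 8 fell and 2 rose, with a median change of -0.05 over the 8, where 13.1% of all tested genes fell and 27.1% were called. The TEAD and coactivator genes were 7: VGLL4, which competes with YAP for TEAD, was higher in all 4 knockout comparisons (0.61 to 0.88) and TEAD3 lower in both lines in DMSO. For both genes the knockout means in DMSO lay nearer to parental cells than the sgCON mean did. VGLL4 measured 22.8 to 28.4 FPKM in YAPKO1 and 20.9, 21.9 and 22.5 in YAPKO2, against 12.8, 13.8 and 13.9 in sgCON, in DMSO, and 23.9, 22.8 and 23.1 in parental cells. TEAD3 measured 3.70, 3.48 and 5.40 FPKM in YAPKO1 and 4.68, 4.21 and 4.06 in YAPKO2, against 5.88, 6.31 and 6.11 in sgCON, in DMSO, and 3.74, 3.71 and 3.29 in parental cells. Between sgCON and parental cells VGLL4 was lower (-0.76 ± 0.09) and TEAD3 higher (0.70 ± 0.14). WWTR1, which encodes the YAP paralogue TAZ, measured 3.81, 2.71 and 3.40 FPKM in YAPKO2, against 5.46, 6.87 and 4.85 in sgCON, in DMSO (-0.71 ± 0.17, limma adjusted p = 0.00617).

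Among paralogues of the targets, 7 of 12 were tested, and TYRO3, an AXL relative, was the only one called in the same direction in both knockout lines in DMSO (0.56 ± 0.17 and 0.76 ± 0.17). In YAPKO1 2 of the 7 rose and 0 fell, beside 12.0% of all tested genes called. In YAPKO2 2 rose and 1 fell, beside 27.1%. NUAK1, the paralogue of NUAK2, measured 9.10, 10.3 and 13.8 FPKM in YAPKO1 and 2.69, 2.80 and 3.33 in YAPKO2, against 6.51, 6.17 and 6.87 in sgCON, in DMSO, and is named after its values were seen. Its YAPKO2 change (-1.03 ± 0.13) ran opposite to that of NUAK2. TFPI, the inhibitor of the F3 pathway, fell in both lines in DMSO (-0.99 ± 0.30 and -1.52 ± 0.30), the only one of 4 ligands and inhibitors of the targets called in both. In YAPKO1 it was the only one of the 4 called, beside 12.0% of all tested genes. In YAPKO2 all 4 were called, beside 27.1%: PROS1, TFPI and TFPI2 fell and GAS6 rose. The AXL ligand GAS6, named after its values were seen, measured 15.5, 15.7 and 14.3 FPKM in YAPKO2, against 7.63, 8.25 and 7.40 in sgCON, in DMSO (0.92 ± 0.15). GAS6 was also higher in sgCON in DMSO than in parental cells, at means of 7.76 and 4.05 FPKM. PROS1 and TFPI2, likewise named after their values were seen, averaged 7.75 and 0.188 FPKM in YAPKO2, against 17.2 and 1.09 in sgCON, in DMSO.

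Ranked by Pearson r of log2 values over the 21 libraries of 7 groups, which share lines and are not independent, CYR61 was most like COL6A3 (r = 0.961), ITGB5 (0.958) and TFPI2 (0.948), and CTGF most like PFDN1 (0.947), KRT80 (0.939) and MYOF (0.937). CYR61 and CTGF had r = 0.922 with each other. These are descriptions of likeness with no test.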

How the data were processed

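The 21 NLF libraries come from a stranded total RNA kit with ribosomal depletion, per the labels' protocols. The authors deposited FPKM values for 57820 genes. STAR 2.4.2, RSEM 1.3.0 and the build hg19 are named in the submitters' processing notes. The strand setting is not given in the sources used here. The calibrated FPKM are the other deposited table times 1 factor per library (0.927 to 1.07). Columns headed only with DMSO and a number were taken as parental, since no other sample claims them. DMSO is given as 0.01% in the labels and 0.1% in the series text.

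Values were divided by 1 median-ratio factor per library (0.93 to 1.11). Genes at 1 FPKM or more in at least 3 libraries were kept. Group means of log2(FPKM + 0.5) were estimated from all 21 libraries in limma 3.58.1 (R 4.3.3), using eBayes with trend. Tests were two-sided and adjusted by Benjamini-Hochberg over all genes tested in a comparison. The script was tested on simulated data. The members and gene lists were chosen with earlier results of these data known. Named genes were all 10 targets, YAP1, the TEAD factors, and listed genes called in the same direction in both knockout lines in DMSO or with trametinib in sgCON. Promoter sequences are from RefSeq.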

Additional observations from a re-analysis of the deposited data

Results flagged for a closer look

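Differences between the knockout lines in DMSO were flagged because the test of the difference itself passed, with each line sharing the same contrast against sgCON. CYR61 was lower in YAPKO2 than in YAPKO1, with a log2 difference of -0.77. NUAK2 was higher in YAPKO2 than in YAPKO1, with a log2 difference of 1.70. YAP1 was lower in YAPKO2 than in YAPKO1, with a log2 difference of -1.83. Groups of 3 libraries were not tested for samples far from the others.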

How the results depend on the processing

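Of 130 changes of the 10 targets over 13 comparisons, 52 were called. Of these, 34 were called under every alternative and 18 were lost under at least 1. Another 11 were gained under at least 1, and 0 reversed. These counts of calls kept, lost and gained leave out the 2-fold threshold. Members called changed most under these settings. With a 2-fold threshold the count was 2 in YAPKO1 and 4 in YAPKO2 against sgCON in DMSO, 1 and 3 in trametinib, 0 for trametinib in sgCON and in YAPKO2, 4 for YAPKO1 against parental cells and 1 between the knockout lines. Pseudocount 0.1 gave 1 for trametinib in sgCON, and pseudocount 1, no filter and both unscaled tables gave 1 for trametinib in YAPKO2. Pseudocount 1, no filter, quantile normalization, only the groups compared and the replicate block gave 1 between the knockout lines. Only the groups compared gave 3 and 2 for YAPKO1 in DMSO and in trametinib, 5 for YAPKO2 in trametinib and 0 for trametinib in YAPKO2. GC spline correction, alone or with the replicate block, gave 1 for trametinib in YAPKO2 and 1 for the YAPKO2 response difference. Leaving out the 3 libraries of high GC trend, chosen after seeing the data, gave 1 for trametinib in sgCON, 1 in YAPKO1, 0 in YAPKO2 and 1 for the YAPKO2 response difference.

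Leaving out 1 library gave 3 to 5 for YAPKO1 and 5 to 8 for YAPKO2 against sgCON in DMSO, 3 to 4 and 6 to 9 in trametinib, 0 to 2 for trametinib in sgCON, 1 to 2 in YAPKO2, 0 to 1 for the YAPKO2 response difference and 1 to 2 between the knockout lines. Whether replicate numbers pair the libraries is not settled by their residuals. Same-numbered residuals had a median r of -0.006 over 63 pairs, beside 0.002 over 126 others. Most of these pairs join different lines, so the median cannot exclude pairing within a line. Between DMSO and trametinib of the same line, same-numbered r ran from -0.125 to 0.361, beside -0.394 to 0.327 for different numbers. The replicate block gave 1 for trametinib in sgCON and 1 in YAPKO2. Counts of all genes moved by over 1.5 times under some alternatives, such as 739 with only the groups compared for YAPKO1 in DMSO, beside 1929. Scaling moved the share of higher calls by over 10 points for trametinib in sgCON (54.8% unscaled, 43.7% scaled), YAPKO1 (62.3%, 50.6%) and YAPKO2 (56.4%, 42.8%). FPKM without counts limit the low values of CTGF and MYOF.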
